A study of Mus musculus with 12 samples.

Results

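The SR proteins and the heterogeneous nuclear ribonucleoproteins (hnRNPs) were compared between the inner (IHC) and outer (OHC) hair cells of the newborn mouse cochlea. The members are all protein-coding genes in the count files named Srsf followed by a number or starting with Hnrnp. These are 12 SR protein genes and 20 hnRNP genes, 32 in all, of the 55416 genes counted, 21627 of which are protein-coding. A further 2 genes with such names, Hnrnpa1l2-ps and Hnrnpa1l2-ps2, are processed pseudogenes and were left out.

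SR proteins carry RNA recognition motifs and a tail rich in arginine and serine that kinases phosphorylate. They bind exonic enhancers and recruit the spliceosome, and several also shuttle to the cytoplasm with the mRNA. The hnRNPs coat nascent transcripts, often act as splicing silencers, and also serve in mRNA export, stability and transport. The relative abundance of the 2 families is a classical influence on the choice of splice sites. Many of these genes limit their own expression by splicing a poison exon into their transcripts, which are then destroyed by nonsense-mediated decay. IHCs pass sound signals to the afferent neurons, and OHCs amplify sound by changing their length.

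Each of the 12 RNA-seq libraries came from hair cells sorted from the organ of Corti at postnatal day 0, 6 of IHCs and 6 of OHCs, from mice whose genotype the labels give as WT. IHCs were sorted for Atoh1-GFP, and OHCs for Atoh1-GFP together with R26-TdTomato, which is switched on in cells that express the Cre recombinase of Insm1-GFP-Cre. Thus the IHC gate rests on the absence of tdTomato, and an OHC that had not recombined the reporter would fall into it. A library is a pool of cells from several pups of both sexes, so p-values measure the spread between pools. It is not given whether IHC and OHC pools shared litters, nor which of the 2 places named for library preparation made which library.

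The libraries held 31490204 to 44017309 counts on genes for IHCs and 29564827 to 39121988 for OHCs. Of these, 73353 to 215939 and 167130 to 230729 fell on the members. The lowest of these totals belonged to IHC replicate 1, in which ribosomal and mitochondrial RNA took 60.0% of the counts (24.3% at the least among IHCs, and 25.3% to 39.0% among OHCs). Levels are given as CPM, counts scaled to a common library size with TMM factors (counts per 1000000), and errors are SDs over the 6 libraries of a cell type. A floor of 3 counts corresponded to 0.0647 to 0.196 CPM, for counting error only. The markers went with the labels, with 4 of 5 IHC markers higher in IHCs and 5 of 6 OHC markers higher in OHCs by adjusted p. Of 8 endothelial markers, 7 were higher in OHCs, with summed levels of 23.3 to 236 CPM against 0.302 to 5.08 CPM in IHCs. All 4 spiral ganglion neuron markers tested were higher in IHCs, with sums over the whole list of 1383 to 2293 CPM against 435 to 673 CPM in OHCs. The list was Tubb3, Nefl, Nefm, Snap25, Neurod1, Prph and Gata3, and whether hair cells themselves expressed these was not tested. Of the general hair cell markers 5 of 14 were higher in IHCs, and of the supporting cell markers 3 of 16 were higher in IHCs and 1 in OHCs. The supporting cell list includes Prox1, which the study gives as enriched in OHCs. Of 6 mesenchymal markers tested 1 was higher in IHCs, with sums over the whole list of 63.8 to 122 CPM against 21.8 to 65.3 CPM in OHCs. None of the 4 greater epithelial ridge, 4 glial and 1 macrophage markers tested was called, and 0 of 8 erythroid markers had enough counts for the test. The part of these marker groups in the differences described here was not tested. In bulk libraries, fewer cells of a type and less RNA per cell cannot be told apart.

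Srsf7 was the member that differed between the cell types. It was higher in OHCs by 2.17-fold (95% interval 1.53 to 3.07), and no member was called higher in IHCs. In total, 31 members had enough counts to be tested, while Srsf19, at 0 counts in all 12 libraries and so below 0.0647 to 0.196 CPM, had not. Members were compared with the quasi-likelihood test of edgeR, fitted on 13269 genes with Benjamini-Hochberg adjustment over all of them at a threshold of 0.05. By that rule 324 genes (2.44%) were higher in OHCs and 506 (3.81%) in IHCs, so 1 called member of 31 is near the share of all genes. On the IHC side, 0 members were called by this test, by edgeR's exact test (5.66% of all genes) and by DESeq2 (7.94%), and 0 had an unadjusted p under 0.05 (12.4%).

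**Figure D1:**
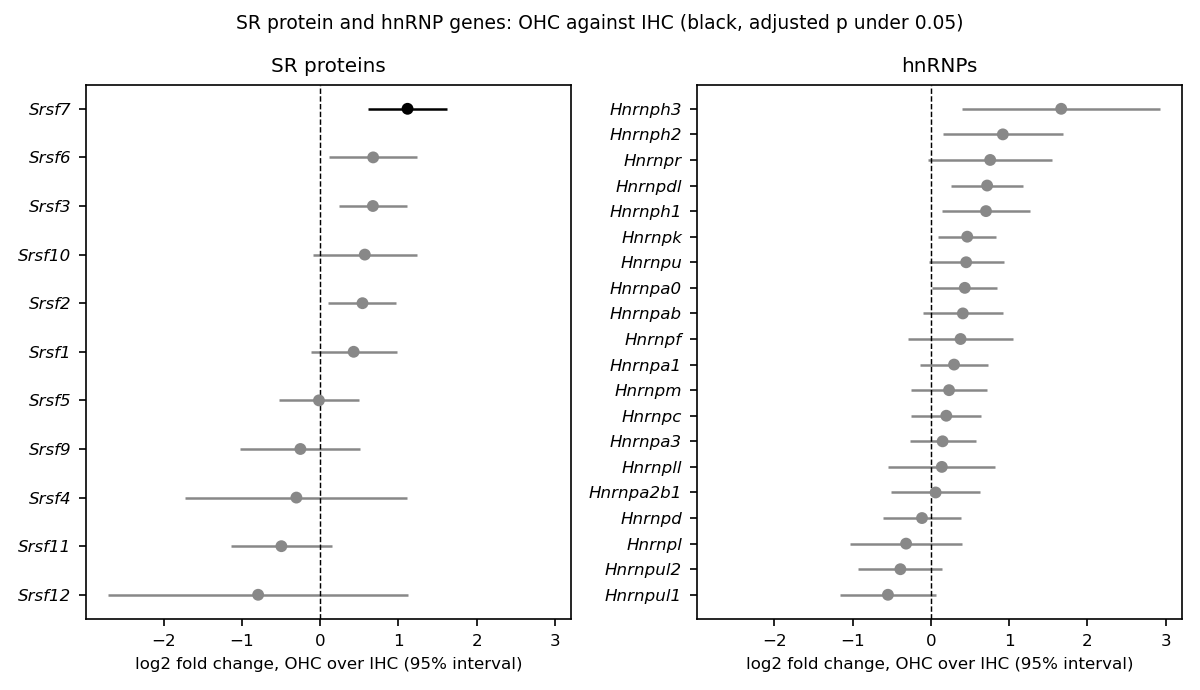
Fitted log2 fold change (OHC over IHC) of the 11 SR genes and 20 hnRNP genes tested, as points, with 95% intervals as lines. Srsf7, in black, passed the threshold, while the intervals of 9 other genes, in grey, lie above 0 without passing after adjustment, and those of the rest cross 0.

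Srsf7, which encodes a small SR protein with a zinc knuckle that also links splicing to polyadenylation and mRNA export, lies on the minus strand at chr17:80507501-80514879 (GRCm39). Its level was 31.9 CPM at the lowest, 59.8 at the median and 81.4 at the highest among the IHC libraries. Among the OHC libraries it was 94.8, 129 and 142 CPM. The cell types did not overlap, since the lowest OHC library exceeded the highest IHC library, as in 2.22% of all genes tested (2.37% in the other direction). No other member was separated in either direction. The means were 58.6 ± 16.3 CPM in IHCs, n = 6, against 127 ± 17.3 CPM in OHCs, n = 6, a log2 fold change of 1.12 with a standard error of 0.24 (edgeR, adjusted p = 0.00746). Leaving out any 1 of the 12 libraries gave values of 0.98 to 1.23 for this change and adjusted p-values of 0.00491 to 0.0207. In OHC replicates 1 to 6, the endothelial markers summed to 70.8, 23.3, 236, 81.8, 33.4 and 70.1 CPM, and Srsf7 measured 127.5, 131, 94.8, 141, 142 and 125 CPM. The part of the endothelial markers in the Srsf7 difference was not tested.

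The difference in Srsf7 was also present without any scaling of libraries, in its share of the counts on SR genes. Srsf7 took 3.26% to 5.90% of these counts in IHCs (mean 4.96% ± 0.99) and 7.20% to 9.62% in OHCs (mean 8.30% ± 0.96), again without overlap. The ratio of Srsf7 to the counts of Srsf3, a close relative, was 0.260 to 0.347 in IHCs and 0.342 to 0.509 in OHCs, where 5 of the 6 OHC libraries lay above all IHC libraries.

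Srsf3, the smallest SR protein and an adaptor for mRNA export, measured 123, 208 and 256 CPM at the lowest, median and highest in IHCs. In OHCs the values were 250.3, 333 and 369 CPM, so the groups overlapped by 1 library on each side. Its means were 200.1 ± 51.5 and 319 ± 46.8 CPM, and the log2 fold change of 0.67 (standard error 0.21) narrowly missed the threshold (edgeR, adjusted p = 0.0565). It passed in DESeq2 (adjusted p = 0.0201) and, in edgeR, without IHC replicate 1 or 2 (adjusted p = 0.0311 and 0.0408). Over all 12 single libraries left out, the adjusted p ranged up to 0.127.

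Hnrnpdl, a relative of the AU-rich element binding factor Hnrnpd whose gene lies 52.3 kb from it on chromosome 5, is named here because another test called it. The IHC libraries gave 75.0, 101 and 132 CPM, and the OHC libraries 121, 174 and 195 CPM, with 5 of 6 OHC libraries above all IHC libraries. The fitted difference was 0.72 on the log2 scale (standard error 0.22; adjusted p = 0.0571 in edgeR's quasi-likelihood test and 0.0491 in edgeR's exact test). Without IHC replicate 4 the adjusted p was 0.0456, and it ranged up to 0.124 without other libraries. Hnrnpd itself averaged 209 ± 76.3 CPM (IHC) against 193 ± 17.6 CPM (OHC), with a log2 fold change of -0.11 (95% interval -0.61 to 0.38). The ratio of Hnrnpdl to Hnrnpd counts was 0.394 to 0.813 in IHCs and 0.638 to 1.06 in OHCs.

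Of the members only Srsf7 passed the threshold, and the promoters of the 3 with the smallest p-values are shown. The promoters were thus picked on these same data. Each runs from 250 bases before to 50 bases after a RefSeq start site on GRCm38.p6, with matches to the motifs searched in capitals. They are chr17:80207256-80207555 on the minus strand for Srsf7, chr17:29032410-29032709 on the plus strand for Srsf3 and chr5:100039173-100039472 on the minus strand for Hnrnpdl.
Srsf7: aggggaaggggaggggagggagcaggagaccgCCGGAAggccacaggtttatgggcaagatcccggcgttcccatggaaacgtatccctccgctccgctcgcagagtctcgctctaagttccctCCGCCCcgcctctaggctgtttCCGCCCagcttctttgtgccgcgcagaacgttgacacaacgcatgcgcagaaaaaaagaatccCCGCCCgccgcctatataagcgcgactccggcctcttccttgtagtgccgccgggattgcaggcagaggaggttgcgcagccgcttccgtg
Srsf3: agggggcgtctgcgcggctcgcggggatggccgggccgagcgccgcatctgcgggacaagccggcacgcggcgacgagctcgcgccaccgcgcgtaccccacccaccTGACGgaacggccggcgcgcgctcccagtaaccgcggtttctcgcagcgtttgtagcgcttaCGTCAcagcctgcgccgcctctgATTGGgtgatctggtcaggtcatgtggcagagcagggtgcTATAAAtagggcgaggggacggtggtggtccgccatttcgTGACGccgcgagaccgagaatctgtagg
Hnrnpdl: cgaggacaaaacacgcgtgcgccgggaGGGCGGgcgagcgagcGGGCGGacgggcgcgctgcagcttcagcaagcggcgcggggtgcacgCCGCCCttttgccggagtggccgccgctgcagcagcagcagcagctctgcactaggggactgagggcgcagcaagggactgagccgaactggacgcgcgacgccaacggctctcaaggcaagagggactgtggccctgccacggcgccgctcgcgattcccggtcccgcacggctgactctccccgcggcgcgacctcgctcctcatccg

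The motifs were the GC box (GGGCGG), the CCAAT box (CCAAT), the ETS core (CCGGAA), the TATA box (TATAAA), the E box (CACGTG) and the core of the cyclic AMP response element (TGACG), on both strands. Only these exact letters were searched, so variants of a motif were not counted. Srsf7 and Hnrnpdl each held 3 GC boxes and Srsf3 none. Srsf3 held 3 cyclic AMP response cores, a CCAAT box and a TATA box. Neither of the other promoters held an exact match to any of these. The 3 sequences thus shared no exact match among the motifs searched. The Srsf7 sequence does hold the letters tatataag, which a search for TATAAA does not match. Whether Srsf7 lacks a TATA box was therefore not tested beyond the exact letters. Promoters were found for 29 of the 32 members, 41 in all, and 82.9% of these held a GC box against 35.7% of all 32851 promoters in the table. For the ETS core the shares were 41.5% and 14.9%, for the cyclic AMP response core 56.1% and 20.8%, and for the CCAAT box 51.2% and 37.4%. TATA boxes were found in 9.76% and 13.6%, and E boxes in 12.2% and 7.15%. Member promoters were rich in G and C (median 68.3% against 52.7%) and in CpG (median 31 against 7), and the shares were not compared at equal base composition. No match for Hnrnpll, Hnrnpul2 and Srsf19 was found in the promoter table.

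Scaled by transcript length, Srsf5 had the highest level of all members, at 185 ± 77.2 CPM per kb in IHCs and 184 ± 41.6 in OHCs. Srsf5, first found as a growth-response gene of regenerating liver, measured 213, 295 and 594 CPM in the IHC libraries against 254, 312 and 449 CPM in the OHC libraries, and its groups overlapped almost fully. Its log2 fold change was -0.01 with a 95% interval of -0.53 to 0.50. Its IHC range was set by replicates 1 and 2, at 594 and 449.8 CPM, and its sign turned with either left out (log2 fold change 0.19 and 0.07).

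Srsf2, which binds purine-rich and pyrimidine-rich enhancers alike and takes part in the release of paused polymerase, followed among SR genes. It measured 184, 237 and 333 CPM in IHCs against 257, 345 and 503 CPM in OHCs. In 3 OHC libraries it lay above every IHC library, and the log2 fold change was 0.54 (standard error 0.21, edgeR, adjusted p = 0.130). Of its annotated exon bases, 67.6% are shared with other genes, chiefly with Mettl23 on the opposite strand, whose own counts reached 328 at most. With the strand setting of the counting not given, reads in that stretch may have been lost in both cell types.

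Srsf1, one of the first SR proteins to be identified, averaged 83.0 ± 27.4 CPM (IHC) against 112 ± 37.3 CPM (OHC). Srsf6, one of the longer SR proteins, averaged 70.3 ± 11.0 CPM (IHC) against 113 ± 45.9 CPM (OHC) (log2 fold change 0.68, edgeR, adjusted p = 0.147). Srsf10, which is known to turn from activator to repressor on dephosphorylation, averaged 58.3 ± 24.0 and 86.6 ± 29.0 CPM. None of these 3 passed the threshold, and in each the ranges of the cell types overlapped. The log2 fold changes of 5 SR genes were below 0, and none of these differences passed either. Srsf11 averaged 67.1 ± 23.7 CPM (IHC) against 47.6 ± 15.6 CPM (OHC), and Srsf9 22.5 ± 5.46 and 18.9 ± 3.96 CPM. For Srsf9, 46.3% of exon bases are shared with other genes, chiefly Gatc on the opposite strand.

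Srsf4 and Srsf12 were low in both cell types. Srsf4 averaged 8.06 ± 5.11 CPM (IHC) against 6.54 ± 5.18 CPM (OHC). Srsf12 ran from 0.419 to 24.5 CPM in IHCs and from 0.200 to 10.8 CPM in OHCs, the highest coefficient of variation of any member, with a 95% interval of the log2 fold change from -2.71 to 1.13. As a fold change of OHC over IHC, this interval runs from 0.153 to 2.19, so it includes a several-fold lower level of Srsf12 in OHCs. Thus 9 of the 12 SR genes lay above 10 CPM per kb in both cell types, in the order Srsf5, Srsf2, Srsf3, Srsf7, Srsf10, Srsf6, Srsf11, Srsf1 and Srsf9, where neighbours from Srsf10 onwards differed by less than the larger of their SDs.

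**Figure D2:**
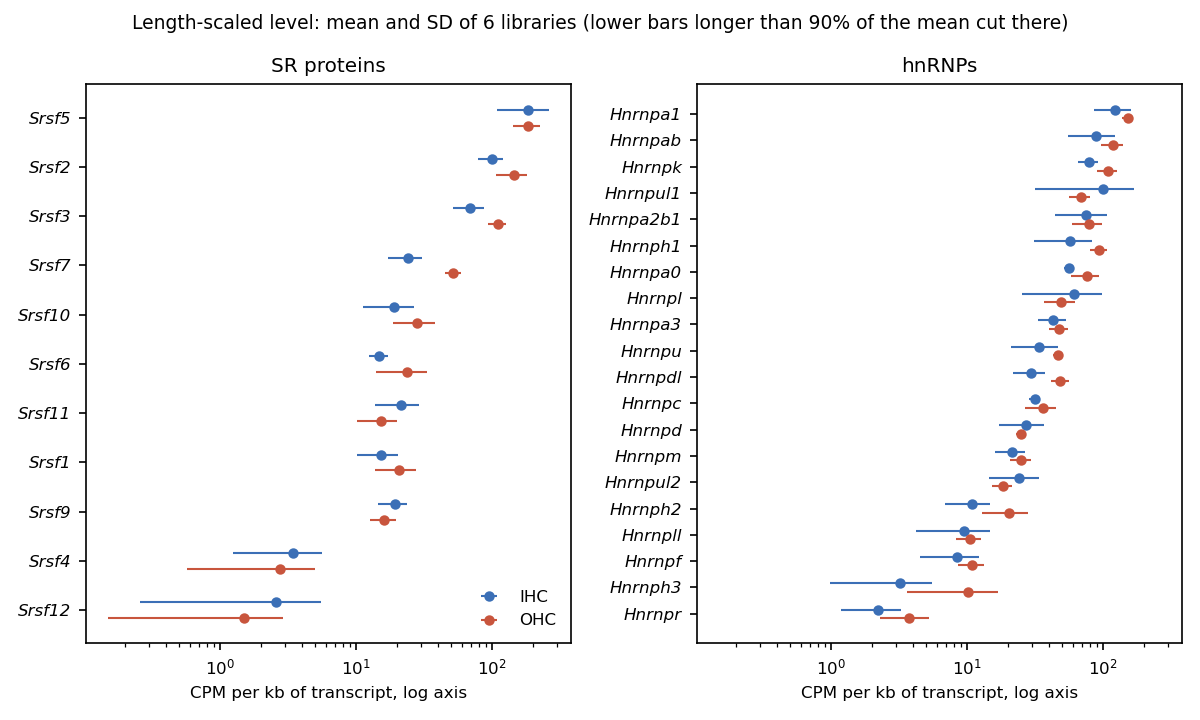
Mean level with SD of the tested members in CPM per kb of the canonical transcript, on a log axis, for IHCs (blue) and OHCs (red), ordered by the mean of both. Srsf5, Srsf2 and Srsf3 lead the SR genes and Hnrnpa1, Hnrnpab and Hnrnpk the hnRNPs, and Srsf12, Srsf4, Hnrnph3 and Hnrnpr lie lowest. Hnrnpr was divided by a canonical transcript of 21475 bases, the longest of the members. Before that scaling it averaged 48.0 CPM (IHC) and 81.0 CPM (OHC).

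Among the hnRNPs, none passed the threshold in edgeR's quasi-likelihood test, and 6 of 20 had an unadjusted p under 0.05, each with the higher level in OHCs. The most abundant per kb was Hnrnpa1, a classical splicing silencer that shuttles between nucleus and cytoplasm, at 124 ± 38.3 CPM per kb in IHCs and 152 ± 14.2 in OHCs. It measured 137, 219.5 and 339.8 CPM in the IHC libraries against 247, 276 and 303 CPM in the OHC libraries. The OHC libraries all lay within a narrow band. Of the IHC libraries, 5 lay below all of them and replicate 2, at 339.8 CPM, above (log2 fold change 0.30, 95% interval -0.14 to 0.73). Along its transcript, 59.1% of single 100-base windows had no unique place in the genome. Read pairs without a unique place are by default not counted by HTSeq.

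Hnrnpab, an RNA-binding protein known from mRNA transport in neurons, came next at 88.8 ± 33.8 and 118 ± 21.8 CPM per kb. It measured 98.4, 186 and 283 CPM in the IHC libraries against 193, 239.7 and 322 CPM in the OHC libraries, with a log2 fold change of 0.41 (95% interval -0.10 to 0.92).

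Hnrnpk, which binds C-rich RNA and single-stranded DNA through KH domains, followed at 79.0 ± 13.3 and 109 ± 17.9 CPM per kb. It measured 354, 376 and 530.4 CPM in the IHC libraries against 413, 535 and 676 CPM in the OHC libraries. A single IHC library, replicate 2 at 530.4 CPM, reached into the OHC range, as the other 5 lay at 354 to 392 CPM. The log2 fold change was 0.46 (standard error 0.18, edgeR, adjusted p = 0.131).

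**Figure D3:**
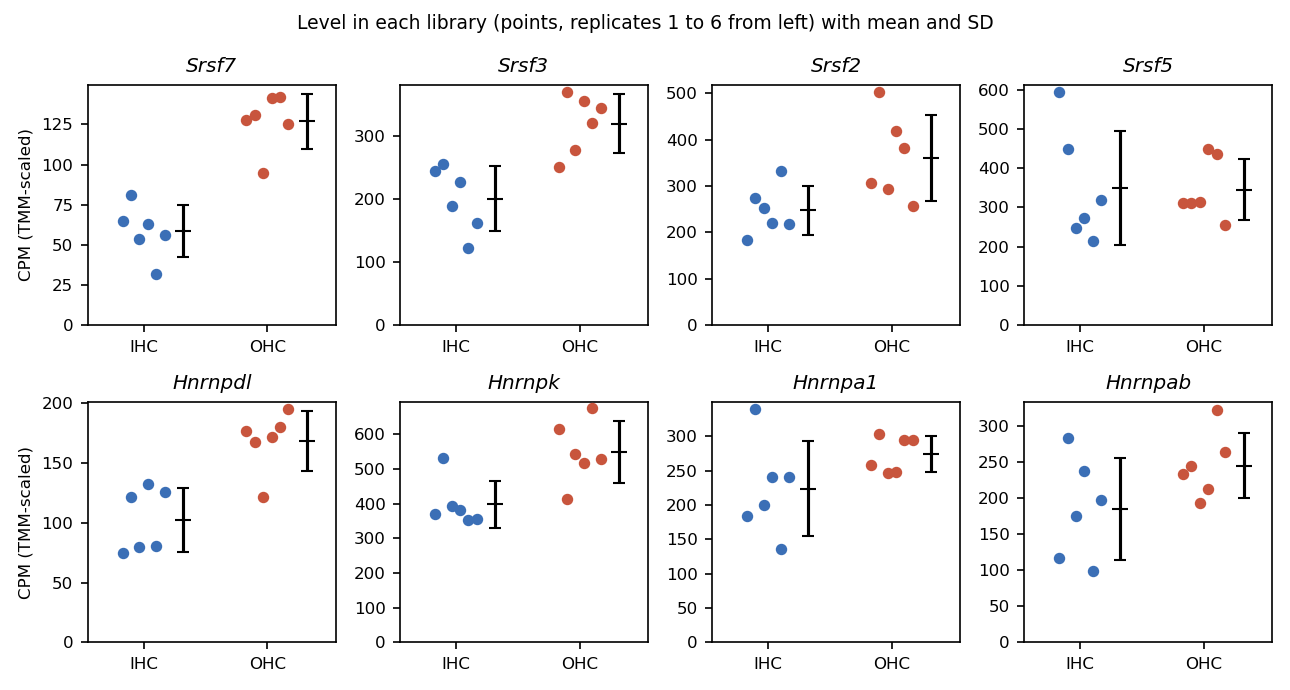
Level in each library in TMM-scaled CPM for Srsf7, Hnrnpdl and the 3 genes of each family with the highest length-scaled level, for IHCs (blue) and OHCs (red), with the mean and SD in black. The 6 OHC libraries of Srsf7 sit at 94.8 to 142 CPM, above the 6 IHC libraries at 31.9 to 81.4 CPM, and in the other 7 genes the groups overlap.

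The remaining A/B type hnRNPs have paired RNA recognition motifs and a glycine-rich tail, and none passed the threshold in edgeR. Hnrnpa2b1, known for carrying mRNAs along dendrites, averaged 221 ± 90.9 CPM (IHC) against 231 ± 56.2 CPM (OHC) (log2 fold change 0.06, 95% interval -0.51 to 0.63). Hnrnpa3 averaged 225 ± 52.6 and 249.9 ± 40.3 CPM, with 78.4% of its windows having no unique place, the highest share of any member. Hnrnpa0, encoded by a gene without introns and known to bind AU-rich elements, averaged 152 ± 12.9 and 205 ± 47.8 CPM. In Hnrnpa0, 4 OHC libraries lay above every IHC library (log2 fold change 0.43, edgeR, adjusted p = 0.212).

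The H/F group, whose members bind runs of G through quasi-RRM domains, held the 2 highest fold changes of the hnRNPs. Hnrnph3 measured 1.15, 7.14 and 14.3 CPM in the IHC libraries against 11.2, 17.6 and 51.4 CPM in the OHC libraries, with 4 OHC libraries above every IHC library. Its log2 fold change of 1.66 was the highest of all members but carried a 95% interval of 0.40 to 2.93 (edgeR, adjusted p = 0.110). Hnrnph1 measured 57.2, 118 and 226 CPM in the IHC libraries against 193, 221 and 273 CPM in the OHC libraries, and only 2 IHC libraries reached into the OHC range (log2 fold change 0.70, edgeR, adjusted p = 0.129). Hnrnph2 averaged 27.4 ± 10.02 CPM (IHC) against 51.7 ± 19.1 CPM (OHC) (log2 fold change 0.92, edgeR, adjusted p = 0.147). Hnrnpf, at 46.3 ± 21.3 and 60.2 ± 13.3 CPM, had an interval from -0.29 to 1.05. All 4 genes of the group had the higher mean in OHCs and none passed the threshold. In Hnrnph2 and Hnrnpf, 35.0% and 30.8% of windows had no unique place, and in Hnrnph3 32.6% of exon bases are shared with other genes, chiefly Rufy2 on the opposite strand.

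Of the hnRNP U group, whose founding protein ties chromatin to nuclear RNA, Hnrnpu averaged 260.2 ± 98.9 CPM (IHC) against 355 ± 28.3 CPM (OHC) (log2 fold change 0.45, edgeR, adjusted p = 0.263). Both its relatives had log2 fold changes below 0 that did not pass. Hnrnpul1 averaged 403 ± 275 CPM (IHC) against 275 ± 49.0 CPM (OHC), and its IHC mean rested on replicate 1 at 949.7 CPM, as the other IHC libraries lay at 244 to 416 CPM. Without IHC replicate 1, its log2 fold change went from -0.55 to -0.10. Without that library the adjusted p was 0.811. Hnrnpul2 averaged 134 ± 53.7 and 102 ± 17.2 CPM (log2 fold change -0.39, 95% interval -0.93 to 0.15).

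Hnrnpl, which binds CA repeats, and its relative Hnrnpll varied several-fold among IHC libraries. Hnrnpl measured 41.1, 136 and 262 CPM in the IHC libraries against 66.0, 103 and 147 CPM in the OHC libraries. Hnrnpll measured 28.5, 38.6 and 96.2 CPM in the IHC libraries against 34.8, 51.7 and 62.2 CPM in the OHC libraries. For neither gene did the cell types separate. The ratio of Hnrnpll to Hnrnpl counts was 0.108 to 1.10 among IHC libraries and 0.236 to 0.845 among OHC libraries, so the spread within a cell type exceeded the difference between the means of 0.506 and 0.514.

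Hnrnpc, which measures the length of transcripts and binds runs of U, averaged 102 ± 10.04 CPM (IHC) against 117 ± 30.0 CPM (OHC). Hnrnpm averaged 86.0 ± 21.7 and 101 ± 17.1 CPM, and Hnrnpr, known from axonal mRNA transport in motor neurons, 48.0 ± 22.5 and 81.0 ± 31.5 CPM. None of these 3 differences passed the threshold. Their log2 fold changes were 0.20, 0.23 and 0.76, in that order.

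Over both families, 22 of the 31 tested members (71.0%) had a log2 fold change above 0, against 48.2% of all genes tested. The median was 0.43 for the SR genes, 0.34 for the hnRNPs and 0.38 for both, against -0.04 for all genes. At an unadjusted p under 0.05 stood 10 members, 4 SR genes and 6 hnRNPs, all with the higher level in OHCs, where 9.36% of all genes tested met that limit on the OHC side and 12.4% on the IHC side. After adjustment 9 of these 10 did not pass, so no difference is claimed for them one by one. Other tests called more of them. EdgeR's exact test called Srsf7 and Hnrnpdl higher in OHCs, with 3.91% of all genes. DESeq2 called Srsf7, Srsf3, Hnrnpdl, Hnrnph3 and Hnrnpk, with 9.43% of all genes that it gave an adjusted p.

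The summed level of the 12 SR genes was 979 to 1449.7 CPM in IHCs (mean 1172 ± 195) and 1317 to 1833 CPM in OHCs (mean 1541 ± 233). The summed level of the 20 hnRNP genes was 2262 to 3895 CPM in IHCs (mean 3148 ± 553) and 3219 to 4060.3 CPM in OHCs (mean 3666 ± 272). In OHCs the mean was 1.31 times that of IHCs for the SR genes and 1.16 times for the hnRNPs, with overlapping ranges in both. The SR sum over the hnRNP sum was 0.376 ± 0.047 in IHCs and 0.420 ± 0.049 in OHCs, a difference of less than 1 SD. TPM adjusts for gene length and was computed without TMM factors. On that scale the ratios of OHC to IHC means rose to 1.66 and 1.45. In IHC replicate 1, where ribosomal and mitochondrial RNA took 60.0% of the counts, the SR genes summed to 216 TPM, against 483 to 763 TPM in the other IHC libraries.

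**Figure D4:**
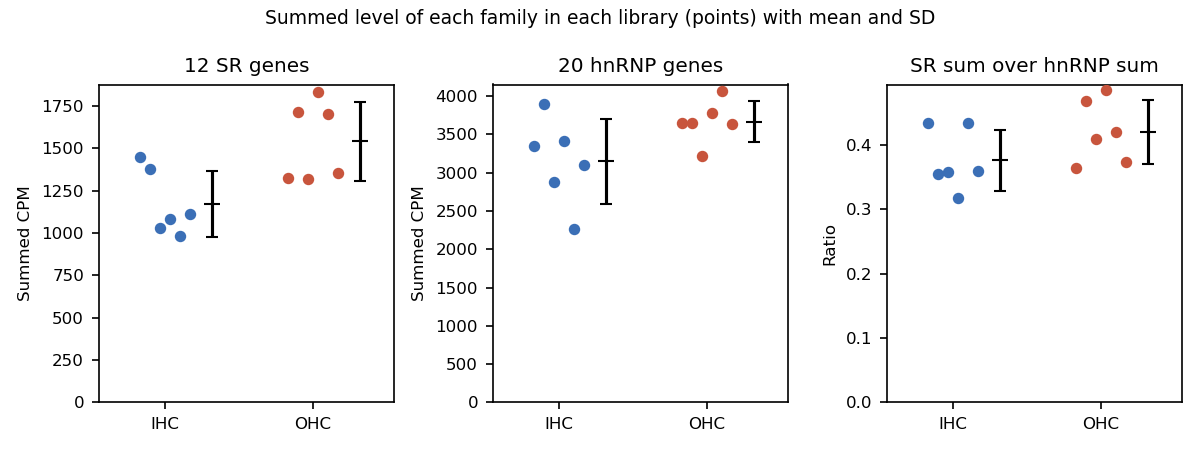
Summed TMM-scaled CPM of the 12 SR genes and of the 20 hnRNP genes, and the ratio of the sums, in each IHC (blue) and OHC (red) library, with the mean and SD in black. The OHC means of 1541 and 3666 CPM lie above the IHC means of 1172 and 3148 CPM, while the points of the cell types overlap in all 3 panels.

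Members had a lower median spread between libraries than all genes did, but the comparisons with all genes were not matched for level. Over the tested members the median coefficient of variation was 36.6% between IHC pools and 22.1% between OHC pools, against 62.8% and 51.3% over all genes tested. It was higher among IHCs than among OHCs for 24 of the 31 members (77.4%), against 65.8% of all genes. This held mainly for the hnRNPs, at 38.03% and 18.1%, while the SR genes had medians of 33.1% and 32.8%. The steadiest were Hnrnpu in OHCs at 7.97% and Hnrnpa0 in IHCs at 8.51%. IHC replicate 5 was the lowest IHC library for 13 members and OHC replicate 3 the lowest OHC library for 12.

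How much of each transcript could be placed uniquely as single windows differed widely between members. The reads were paired and aligned with STAR, so these shares are not the shares of reads lost. Windows of 100 bases, the read length, were taken every 10 bases along each canonical transcript and aligned back to GRCm39. In Srsf7 0.426% of windows had no unique place and in Hnrnpdl 0.890%, but in Srsf3 17.1%, in Srsf10 21.96% and in Srsf5 17.9%. Exon bases shared with another gene made up 0% in Srsf7, 3.14% in Srsf3 and 18.8% in Hnrnpdl. The transcript of Srsf7 can thus be placed almost whole, but so can those of many members that did not pass. Among these, Srsf1, Srsf11 and Hnrnpu had 0% of windows without a unique place. Many of these genes are known to have processed pseudogenes, which differ from the transcript by few bases.

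**Figure D5:**
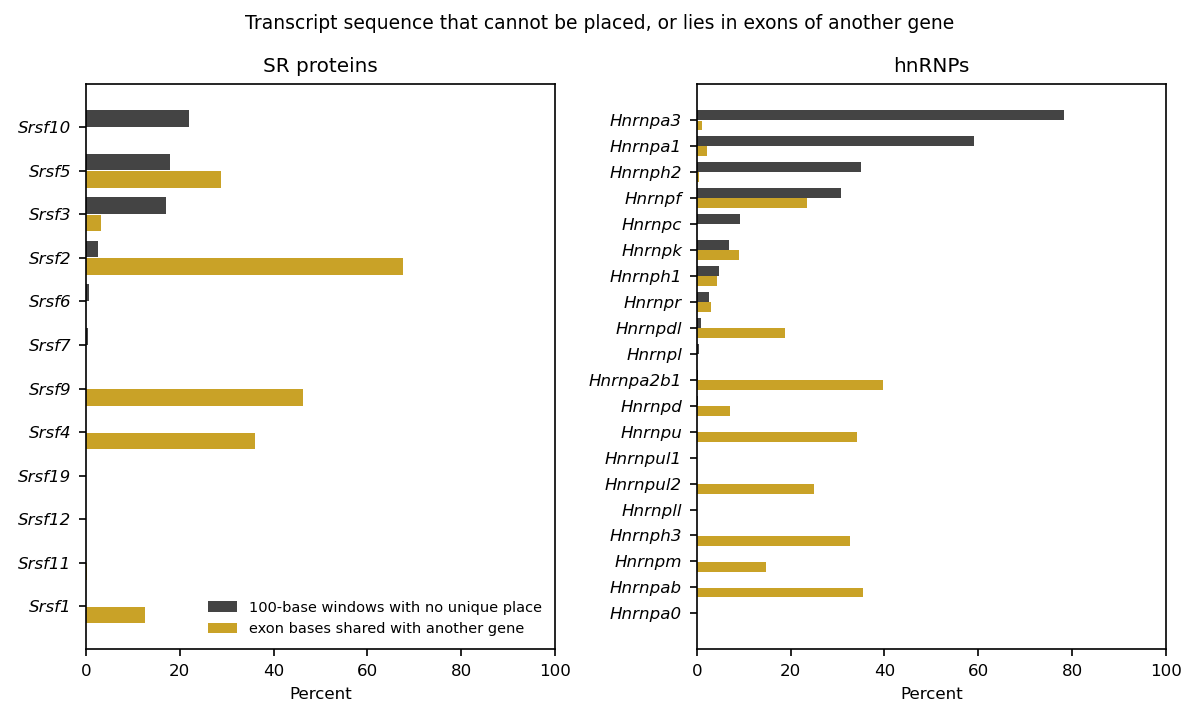
Percent of 100-base windows of the canonical transcript without a unique place in GRCm39 (dark bars) and percent of annotated exon bases shared with another gene (yellow bars) for the 12 SR genes and 20 hnRNPs. Hnrnpa3 at 78.4% and Hnrnpa1 at 59.1% lead the dark bars and Srsf2 at 67.6% the yellow bars, and Srsf7 is near 0 in both.

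Transcripts that end in nonsense-mediated decay are annotated in GENCODE vM39 for 11 of the 12 SR genes and 14 of the 20 hnRNPs, against 54.8% of the protein-coding genes in the files. Transcripts with a retained intron are annotated for 8 and 14 of them, against 42.4%. Counts per gene sum over all these forms, so a gene's level here does not say how much of it can be translated. Among 16 tested factors of nonsense-mediated decay, 1 was higher in OHCs (2.44% of all genes tested) and none in IHCs (3.81%). This was Upf2, a bridge of the decay complex, at 72.2 ± 31.0 CPM (IHC) against 164 ± 51.1 CPM (OHC) (log2 fold change 1.18, edgeR, adjusted p = 0.0179). Without OHC replicate 1 it did not pass (adjusted p = 0.0576).

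Of 15 genes for kinases, phosphatases and importers of SR proteins, 2 were higher in OHCs (2.44% of all genes tested) and none in IHCs (3.81%). Srpk2, a kinase that phosphorylates the arginine-serine tail, measured 26.7, 38.04 and 63.5 CPM in the IHC libraries against 65.7, 90.8 and 98.7 CPM in the OHC libraries, with no overlap (as in 2.22% of all genes tested). Its log2 fold change was 1.12 with a standard error of 0.27 (edgeR, adjusted p = 0.0149). Ppp1cb, a catalytic subunit of protein phosphatase 1, averaged 309 ± 78.3 CPM (IHC) against 518 ± 105 CPM (OHC) (log2 fold change 0.75, edgeR, adjusted p = 0.0300), but it did not pass without IHC replicate 4 or 5 or OHC replicate 1, 4 or 5 (adjusted p = 0.0551 to 0.0760). The median log2 fold change of these 15 genes was 0.36.

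In edgeR, 0 of 26 SR-related genes and 0 of 40 genes of the core spliceosome were called in either direction, with median log2 fold changes of 0.07 and 0.01. At an unadjusted p under 0.05 they held 2 and 3 genes, and DESeq2 called 1 gene of each list, the SR-related one higher in IHCs and the spliceosomal one in OHCs. Among 25 hnRNP proteins with other names, 1 was called, and it was higher in IHCs (3.81% of all genes tested). On the OHC side 2 had an unadjusted p under 0.05, and DESeq2 called 2. Ptbp1, the polypyrimidine tract binding protein that represses neuronal exons, measured 744, 1097 and 1537 CPM in the IHC libraries against 449.6, 550.3 and 649 CPM in the OHC libraries, with no overlap (as in 2.37% of all genes tested). Its log2 fold change was -1.04 (standard error 0.19, edgeR, adjusted p = 0.00242), although on library totals without TMM the adjusted p was 0.0532. The neuronal relative Ptbp2, named after its values were seen, averaged 7.64 ± 6.66 CPM (IHC) against 21.7 ± 9.55 CPM (OHC) and did not pass in edgeR (log2 fold change 1.502, adjusted p = 0.150), while in DESeq2 it did (adjusted p = 0.0461).

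Of 26 tested regulators of splicing in neurons and hair cells, 2 were higher in OHCs (2.44% of all genes tested) and none in IHCs (3.81%). Khdrbs2, a STAR-family protein of neurons, averaged 7.18 ± 4.56 CPM (IHC) against 29.4 ± 7.28 CPM (OHC) (log2 fold change 2.03, edgeR, adjusted p = 0.0185). Elavl2, a neuronal Hu protein, was close to the floor in IHCs at 0.0306 to 0.916 CPM and ran from 0.597 to 23.2 CPM in OHCs (edgeR, adjusted p = 0.0125). It could pass the filter on low counts through the OHC libraries, where it was higher. With at least 10 counts asked of every library, Elavl2 was not tested. At an unadjusted p under 0.05, 1 gene of this list was higher in IHCs, and DESeq2 called 0 there. For the decay factors and the SR kinases, phosphatases and importers, 0 genes were on the IHC side in either way.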

How the data were processed

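The authors deposited HTSeq counts of reads per gene, not normalized, for each of the 12 libraries. By the study's methods, ribosomal RNA was depleted, cDNA was amplified from random hexamers, and paired reads were trimmed with Trimmomatic, aligned with STAR to GRCm39 and counted against GENCODE vM27. Versions and the strand setting are not given in the sources used here. Amplified reads carry no molecular identifiers, so copies count as reads.

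Groups came from the sample titles. Counts were fitted in edgeR 4.0.16 (R 4.3.3) with filterByExpr, TMM, estimateDisp, glmQLFit and glmQLFTest. Genes pass that filter at about 10 counts in a group's libraries and 15 in total. Alternatives were DESeq2 1.42.0, edgeR's exact test, other scaling and filters, a replicate block and leaving out each library. The code was tested on simulated data. Windows were aligned with minimap2 2.31 and called unique from a mapping quality of 10. Coordinates and exon overlaps come from GENCODE vM39, which is newer than the counting annotation and holds 98.8% of the gene identifiers. CPM per kb used the canonical transcript. Promoters are those of RefSeq.

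Every member is accounted for. Those past the threshold, those fully separated and the 3 of each family with the highest length-scaled level are given by library values, and from other lists the genes past the threshold. Members and lists were chosen with earlier results of these data known.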

Additional observations from a re-analysis of the deposited data

Results flagged for a closer look

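In 8 of 62 groups of 6 libraries, 1 for each of 8 members, a single library lay far from the rest by Dixon's criterion. Its nominal rate of about 1 in 20 groups holds for normally distributed values, which CPM need not be. The share of groups flagged over all genes was not computed, so 8 of 62 is not read as an excess. Among IHC libraries, Hnrnpk stood at 530.4 CPM in replicate 2 (others 354 to 392), Hnrnpll at 96.2 CPM in replicate 5 (others 28.5 to 45.3), Hnrnpul1 at 949.7 CPM in replicate 1 (others 244 to 416), Srsf12 at 24.5 CPM in replicate 6 (others 0.419 to 7.08) and Srsf6 at 92.1 CPM in replicate 6 (others 61.4 to 68.4). Among OHC libraries, Srsf1 stood at 183 CPM and Srsf4 at 16.4 CPM in replicate 5 (others 77.6 to 117 and 1.87 to 7.23), and Srsf7 at 94.8 CPM in replicate 3 (others 125 to 142). In Srsf7 the library that stood apart was the one closest to the IHC levels.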

How the results depend on the processing

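Over 619 combinations of a tested member and an alternative, 594 kept their direction and side of the threshold, 11 newly passed, 0 lost a call and 14 turned in sign. Srsf7 was called under each alternative. Members called higher in OHCs numbered 1 in the analysis reported, 2 in edgeR's exact test and on library totals without TMM, 3 with at least 10 counts in every library, 5 in DESeq2, and 1 to 2 with 1 library left out. On the OHC side, all genes called numbered 341 of 13269 on library totals and 221 of 9638 with at least 10 counts in every library. With 1 library left out they numbered 225 to 402. Members called in IHCs stayed at 0. On library totals without TMM the median of all genes moved from -0.04 to 0.21, that of the members from 0.38 to 0.57, and 3 members separated fully. The share of all genes separated on library totals was not computed. There Hnrnpd, Hnrnpl, Srsf5 and Srsf9 turned positive (log2 fold changes 0.086, 0.025, 0.31 and 0.023). With 1 library left out, the median log2 fold change ran from 0.23 to 0.50 for SR genes, lowest without OHC replicate 5, and from 0.24 to 0.45 for hnRNPs. Signs turned within the ranges of Hnrnpa2b1 (-0.12 to 0.20), Hnrnpd (-0.27 to 0.023), Srsf12 (-1.28 to 0.029), Srsf4 (-0.82 to 0.069) and Srsf5 (-0.15 to 0.19). TPM, without TMM factors, in place of CPM took the ratio of summed levels to 1.66 for SR genes and 1.45 for hnRNPs. The causes were not tested.

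Genes for SR kinases, phosphatases and importers called higher in OHCs numbered 1 to 2 with 1 library left out. SR-related genes ranged from 0 to 1 in each direction and were 1 in IHCs in DESeq2. HnRNPs under other names numbered 1 in the exact test and 2 in DESeq2 for OHCs, 2 in DESeq2 and 0 on library totals for IHCs, and 0 to 1 (OHC) and 1 to 2 (IHC) with 1 library left out. Core spliceosome genes numbered 1 in DESeq2 for OHCs, and 1 in the exact test and 1 without a filter on low counts for IHCs. Decay factors for OHCs numbered 4 in DESeq2 and 0 to 1 with 1 library left out. Other regulators numbered 1 for OHCs with at least 10 counts in every library, where Elavl2 was not tested, and 0 to 1 for IHCs with 1 library left out.

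The replicate block gave 1 member, Srsf7 (adjusted p = 0.0129), turned Srsf5 to 0.050, took SR kinases, phosphatases and importers from 2 to 1, with Ppp1cb at an adjusted p of 0.0522, and changed no other count of these lists. It gave 391 genes for OHCs and 512 for IHCs in place of 324 and 506. Deviations of same-numbered IHC and OHC libraries from their group means correlated at -0.03 to 0.02. Whether same-numbered libraries shared litters or a batch cannot be told from these values. Over all genes, 519 were higher in OHCs in the exact test, 1590 in DESeq2 and 918 without a filter, and 1339 in DESeq2, 893 without a filter and 229 on library totals were higher in IHCs. Srsf12, Srsf4 and Hnrnph3 had under 3 CPM in at least 1 library. No test of exons or isoforms can be made from counts per gene.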
